A study of Homo sapiens with 38 samples.

Results

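The genes described here encode 50 core components and regulators of pre-mRNA splicing, and the question was at which of their promoters Sp1 and Sp1-derived proteins gave CUT&RUN peaks. They were chosen by name, as 11 SR proteins, 14 hnRNP proteins, 9 subunits of SF3, 12 snRNP proteins and 4 proteins of the U2AF and Prp groups, out of 20046 protein-coding genes in GENCODE 44, and all 50 were found there. A gene was called occupied in a list when any base of a peak lay within 1000 bp of any of its annotated transcript starts in hg38. In the Sp1 WT list 21 of the 50 genes (42%) were occupied, a larger share than the 23.7% of all protein-coding genes. Of the classes, hnRNP genes were occupied most often there (71.4%), and snRNP genes (41.7%) about as often as the 50 together. In the lists of the Sp1 DBD and of the EWS chimera the share of splicing factor genes was near that of all protein-coding genes.

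CUT&RUN, in which an antibody directs a nuclease to a chromatin protein so that the DNA beside it is released and sequenced, was done in U2OS, a human osteosarcoma line. All lines, the parental line included, carried V5 and Halo tags on the endogenous Sp1 (1 knock-in clone), and all were treated with doxycycline at 1 μg/ml for 36 h, sorted and kept for another 36 h. The parental line (CTRL) had no further construct, and each of 9 derived lines held at the AAVS1 locus 1 doxycycline-inducible, SNAPf- and FLAG-tagged protein: Sp1 WT, the Sp1 DBD alone, an EWS IDR-Sp1 DBD chimera, the CTCF DBD, an Sp1 IDR-CTCF DBD chimera, LacI, an Sp1 IDR-LacI chimera, an Sp1 DBD Mutant or SNAP-NLS. The 38 samples made 19 pairs of replicates, 1 pair for a line and antibody, and each pair gave a single peak list, so that the lists themselves are not replicated. Anti-FLAG lists show the construct and anti-V5 lists, from rabbit and from mouse antibodies, show endogenous Sp1 in CTRL and in the Sp1 WT, Sp1 IDR-LacI and Sp1 IDR-CTCF DBD lines. The 3 anti-FLAG lists of proteins with the Sp1 DBD and the 8 anti-V5 lists are called the 11 Sp1 lists below. They held from 1332 to 5151 peaks, and the other 8 lists from 22 to 649. The number of reads behind a list is unknown here, a gene without a listed peak is not shown to lack the protein, and the cell type of the line cannot be checked with lists of this kind.

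Splicing removes introns in the spliceosome, which is built from small nuclear ribonucleoproteins (snRNPs). Each holds an RNA and particle-specific proteins, and most hold a ring of Sm proteins. SF3 is the part of the U2 snRNP that holds the branch point, U2AF marks the end of the intron, and SR and hnRNP proteins bind the transcript and promote or repress the use of nearby splice sites. Sp1 binds GC boxes through its zinc fingers, and such boxes are common in promoters of genes that most cells use.

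To show the DNA at these peaks, the Sp1 WT summit with 50 bases on either side is given for the gene of each class with the highest mean rank over the 11 Sp1 lists, on the plus strand of hg38. Capitals mark every match, on either strand, to the GC box GGGCGG, its longer form GGGGCGGGG, the CCAAT box, the ETS-type motif CCGGAAG, the TATA box TATAAA and the YY1-type motif AAGATGGC. All 4 genes lie on the minus strand, and the first gene of the U2AF and Prp class had no Sp1 WT peak. SF3B6, at chr2:24076583-24076683, had 3 GC boxes. HNRNPL, at chr19:38850402-38850502, had 1 GC box and 1 CCAAT. SNRPD2, at chr19:45692327-45692427, had no GC box in this window but 1 CCAAT and 1 CCGGAAG. SRSF2, at chr17:76737501-76737601, held none of the 6 motifs.
SF3B6: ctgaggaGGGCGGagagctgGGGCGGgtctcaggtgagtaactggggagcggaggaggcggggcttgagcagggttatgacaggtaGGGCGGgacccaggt
HNRNPL: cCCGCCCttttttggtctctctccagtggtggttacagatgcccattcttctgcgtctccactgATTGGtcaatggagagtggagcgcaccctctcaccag
SNRPD2: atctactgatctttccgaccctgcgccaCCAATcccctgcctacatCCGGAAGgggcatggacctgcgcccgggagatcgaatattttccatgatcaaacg
SRSF2: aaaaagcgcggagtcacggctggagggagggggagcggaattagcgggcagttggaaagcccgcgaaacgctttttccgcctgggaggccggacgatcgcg

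Among the lists of proteins with the Sp1 DBD, Sp1 WT occupied 21 of the 50 genes, which is 42% (95% Wilson interval, 29.4 to 55.8%), against 23.7% of protein-coding genes. The Sp1 DBD alone occupied 7 genes, 14% (6.95 to 26.2%), against 16.1%, and the EWS IDR-Sp1 DBD chimera occupied 5 genes, 10% (4.35 to 21.4%), against 11.1%. The intervals cover counting error over genes only. Genes are not replicates, and these were chosen with earlier results of these data known, so the intervals describe and do not test. The share of splicing factor genes was above that of all protein-coding genes with Sp1 WT and slightly below it in the other 2 lists. The Sp1 WT list is also the longest of the 11. When each list was reduced to its 1332 highest ranked peaks, the length of the shortest, Sp1 WT occupied 10 genes (20%, against 7.1% of protein-coding genes), the Sp1 DBD 2 genes (4%, against 6.93%) and the EWS chimera 3 genes (6%, against 6.15%). The count of 2 is too small to place the Sp1 DBD below all protein-coding genes. The splicing factor genes have more annotated starts than others (median 8 against 5), but with 1 canonical start a gene the counts were 20 for Sp1 WT (40%, against 21.3% of protein-coding genes) and 7 for the Sp1 DBD (14%, against 14.4%). With peaks at an irreproducible discovery rate of at most 0.01 the counts were 12 for Sp1 WT (24%, against 13.3% of protein-coding genes) and 2 for the Sp1 DBD (4%, against 7.14%). Which libraries served as the control in peak calling is not given in the sources used here, so lists may share them, and their counts are set side by side with no test.

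Endogenous Sp1 occupied 9 to 14 of the 50 genes in every anti-V5 list. With the rabbit antibody the counts were 12 in CTRL (10.4% of protein-coding genes), 9 in the Sp1 WT line (8.65%), 14 in the Sp1 IDR-LacI line (11%) and 14 in the Sp1 IDR-CTCF DBD line (11.1%). With the mouse antibody they were 13 in CTRL (9.75%), 9 in the Sp1 WT line (6.8%), 12 in the Sp1 IDR-LacI line (8.79%) and 9 in the Sp1 IDR-CTCF DBD line (7.33%). The share of splicing factor genes, from 18 to 28%, was 2.08 to 2.73 times that of protein-coding genes in these 8 lists. In all, 20 of the 50 genes were occupied in at least 1 anti-V5 list, against 15.1% of protein-coding genes, and 24 in at least 1 of the 11 Sp1 lists, against 28.9%. The last count fell to 14 both at an irreproducible discovery rate of at most 0.01 (28%, against 16.8%) and with lists of equal length (28%, against 14.8%). Genes occupied in all 8 anti-V5 lists numbered 5 (4.22% of protein-coding genes): SF3B6, SNRPD2, SNRPD3, SNRPA and HNRNPC.

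**Figure D1:**
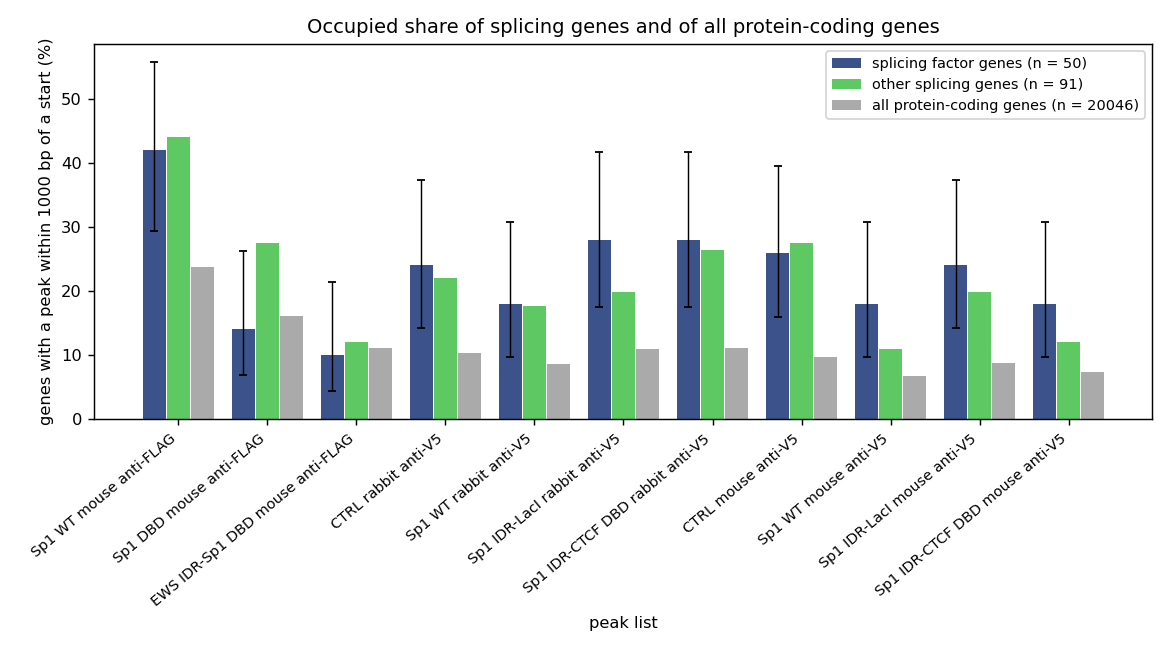
Share of genes with a peak within 1000 bp of a transcript start (%, vertical axis) in each of the 11 Sp1 lists, for the 50 splicing factor genes (with 95% Wilson intervals), 91 other splicing genes and 20046 protein-coding genes. The splicing factor genes stand above all protein-coding genes in the Sp1 WT list (42% against 23.7%) and in the 8 anti-V5 lists, and near them in the Sp1 DBD and EWS IDR-Sp1 DBD lists.

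The other 8 lists, of control-type lines and of CTCF DBD proteins, showed few of these genes. LacI, the Sp1 DBD Mutant, SNAP-NLS and CTRL with mouse anti-FLAG occupied 0 of the 50 and 0% of protein-coding genes. Sp1 IDR-LacI (0.00499%) and CTRL with rabbit anti-FLAG (0.0649%) also occupied 0 of the 50. The CTCF DBD occupied 2 genes (4%), against 1.88% of protein-coding genes, and the Sp1 IDR-CTCF DBD chimera 1 gene (2%), against 0.574%. Both shares were above the background but rest on these few genes. HNRNPA2B1 was in both lists, with replicate values of −log10 p, the authors' measure of peak strength, of 9.35 and 26.8 for the CTCF DBD and of 14 and 14.8 for the chimera. SNRPD1, which encodes an Sm ring protein, had a CTCF DBD peak at chr18:21611976-21612579 with values of 9.94 and 17.4 and no peak in any of the 11 Sp1 lists. HNRNPA2B1 was thus the only one of the 50 genes that had a peak both with a CTCF DBD protein and in the Sp1 lists.

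The classes differed in how often they were occupied. Over the 11 Sp1 lists, hnRNP genes held 66 of 154 possible calls (42.9%), snRNP genes 39 of 132 (29.5%), SF3 genes 14 of 99 (14.1%), SR genes 5 of 121 (4.13%) and the U2AF and Prp genes 1 of 44 (2.27%), against 11.3% for all protein-coding genes. The lists are not independent of each other, so these are counts of calls and carry no test. In the Sp1 WT list alone, 10 of 14 hnRNP genes (71.4%), 5 of 12 snRNP genes (41.7%), 3 of 9 SF3 genes (33.3%), 3 of 11 SR genes (27.3%) and 0 of 4 U2AF and Prp genes were occupied, against 23.7% of protein-coding genes, so that the share of SR genes was near the background there. In the anti-V5 lists the SR genes held 2 of 88 possible calls (2.27%) and hnRNP genes 50 of 112 (44.6%), against 9.24% for all protein-coding genes.

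**Figure D2:**
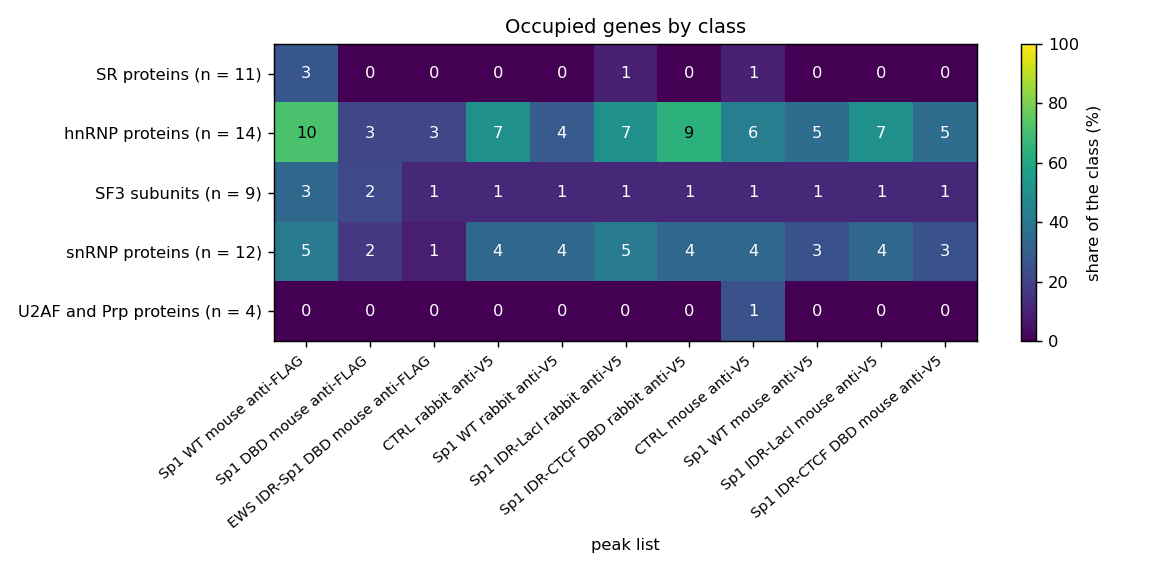
Number of occupied genes in each class (rows) and Sp1 list (columns); the number in a cell is the count, and the colour is the share of the class (%). hnRNP genes reach 10 of 14 in the Sp1 WT list and 4 to 9 in the anti-V5 lists, and SR genes have 0 or 1 in every list but that of Sp1 WT.

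Of the snRNP genes, 3 were among the strongest of the whole set. SNRPD2 and SNRPD3 encode Sm proteins, which form the ring shared by most snRNPs, and SNRPA encodes an RNA-binding protein of the U1 snRNP. SNRPD2 was occupied in all 11 lists. Its Sp1 WT peak, at chr19:45691387-45693024, had values of 83.9 and 111 in the first and second replicate given to the reproducibility analysis, and ranked at percentile 99.1, where 100 is the strongest peak of the list. With the Sp1 DBD it was 32 and 35.9 (percentile 86.5), and with the EWS chimera 13.3 and 25.1 (31.1). In the 8 anti-V5 lists its replicate values lay between 38.2 and 141 and its percentiles between 83.3 and 92.4. The peak thus stood high in every list except that of the EWS chimera. It is shared with QPCTL, which encodes a glutaminyl-peptide cyclotransferase-like protein, and whose start is 26 bases from the Sp1 WT summit while that of SNRPD2 is 61 bases away. QPCTL also had the start nearest to the summit in the other lists, except that of the EWS chimera.

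SNRPD3 was occupied in 10 lists, all but that of the EWS chimera. Its Sp1 WT peak, at chr22:24554935-24556190, had values of 80.7 and 76.7 (percentile 98.6), and its Sp1 DBD peak 13.4 and 18.8 (percentile 35.2). Both replicates of the Sp1 DBD were therefore lower than both of Sp1 WT, as they were at SNRPD2, although values of different lists are not on 1 scale of depth. In the anti-V5 lists the replicate values ranged from 41.6 to 132. The Sp1 WT summit lay 615 bases before the nearest SNRPD3 start and 161 bases from a start of GUCD1, a neighbouring gene. A further protein-coding model without a gene name also has a start there. In every list that held the peak, GUCD1 had the start nearest to the summit.

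SNRPA was occupied in Sp1 WT and all 8 anti-V5 lists but in neither of the other lists of Sp1 DBD proteins. Its Sp1 WT peak, at chr19:40750363-40751638, had values of 37.2 and 71.6 (percentile 85.1), and its anti-V5 percentiles ran from 67.5 to 89.8. The gene ACTMAP shares that peak. SNRNP70, which encodes the U1 70K protein, was occupied in 7 lists, always low in the ranks, at percentiles from 3.16 to 19.2, and SNRPB in 2. The other 7 snRNP genes (SNRPA1, SNRPB2, SNRPC, SNRPD1, SNRPE, SNRPF and SNRPG) were occupied in none of the 11, so that genes of the same Sm ring fell at both ends of the range.

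Within SF3 a single gene carried most of the calls. SF3B6, which encodes the small subunit that lies next to the branch point, was occupied in all 11 lists, at percentiles from 75.8 to 99.6. Its Sp1 WT peak at chr2:24075973-24078011 had values of 96.8 and 100.9, its Sp1 DBD peak 40.9 and 39, and its EWS IDR-Sp1 DBD peak 23 and 41.9. In CTRL the endogenous protein gave 64.1 and 103 with the rabbit antibody and 58.7 and 137 with the mouse antibody. In CTRL the second replicate was thus the higher with either antibody. FAM228B, a neighbouring gene, shares the peak, and the Sp1 WT summit lay 107 bases from a FAM228B start and 260 bases before that of SF3B6. FAM228B had the start nearest to the summit in all 11 lists. SF3B4, a further subunit, had weak peaks with Sp1 WT (14.9 and 17, percentile 34.7) and the Sp1 DBD (10.7 and 13.6, percentile 14.5), and SF3B2 a weak peak with Sp1 WT only (percentile 10.5). SF3A1, SF3A2, SF3A3, SF3B1, SF3B3 and SF3B5 had no peak in the 11 lists, SF3B1 being the largest subunit of the complex and the one best known for mutations in blood cancers.

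HNRNPL, whose protein binds CA-rich RNA, had the highest ranked peak of the 50 genes in each of the 5 anti-V5 lists that held it. In CTRL with the rabbit antibody its values were 160 and 155, the rank 4 of 1987 peaks. In the Sp1 IDR-LacI line with the same antibody they were 140 and 157, and in the Sp1 IDR-CTCF DBD line 118 and 107. With the mouse antibody they were 103 and 106 in the Sp1 WT line and 91.4 and 99.1 in the Sp1 IDR-CTCF DBD line. These 5 peaks ranked at percentiles from 95 to 99.8. Yet no peak was listed for HNRNPL in CTRL with the mouse antibody, in the Sp1 WT line with the rabbit antibody or in the Sp1 IDR-LacI line with the mouse antibody, where the nearest peaks were 49547 to 49624 bases away. The Sp1 WT peak, at chr19:38849305-38852554, had values of 65.5 and 108 (percentile 97.2), the EWS chimera gave 23.6 and 34.3 (77.6), and the Sp1 DBD none within 124712 bases. The peak was 3250 bases long in the Sp1 WT list, the longest of the 50 genes there.

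Such gaps were not particular to HNRNPL. Of protein-coding genes whose median percentile over the anti-V5 lists that held them was above 90, 137 were in all 8 lists and 48 (25.9% of both together) in 4 to 7 of them. A missing anti-V5 call at a strong promoter does not by itself show a difference between lines or antibodies. These counts do not cover the anti-FLAG lists of Sp1 WT and the Sp1 DBD. Why the calls are missing was not tested.

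**Figure D3:**
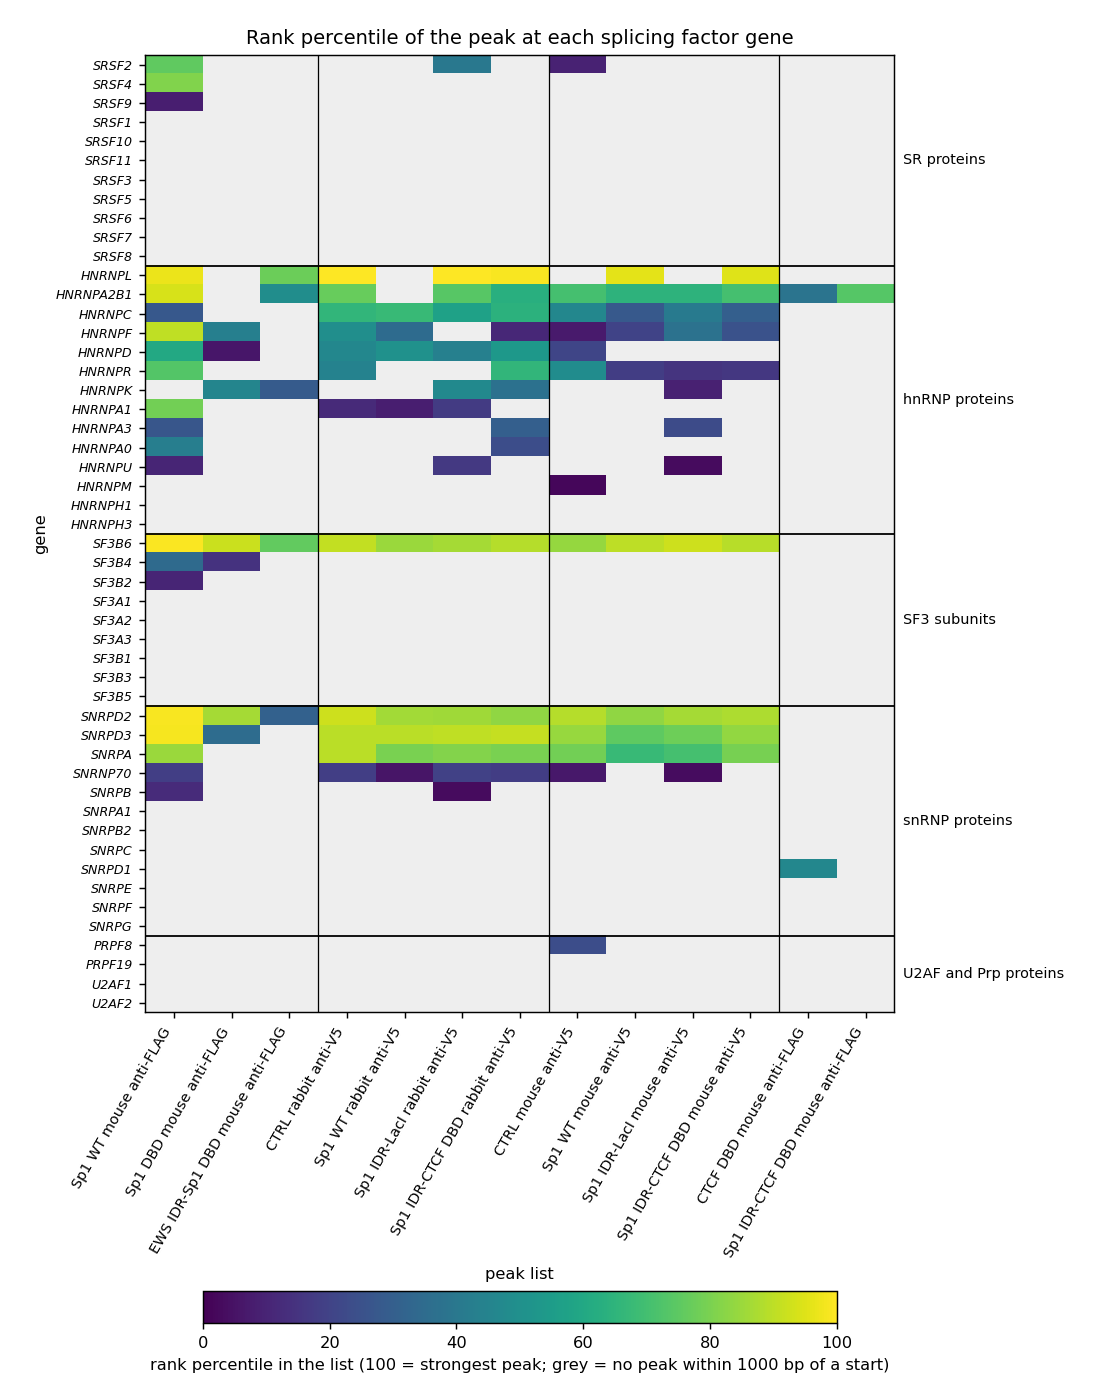
Rank percentile of the peak at each of the 50 genes (rows, by class) in the 11 Sp1 lists and the 2 CTCF DBD lists (columns); 100 is the strongest peak of a list, and grey means that no peak was listed within 1000 bp of a start. SF3B6, SNRPD2, SNRPD3 and SNRPA form nearly unbroken rows, HNRNPL alternates between percentiles of 95 to 99.8 and no call in the anti-V5 lists, and 26 genes have no peak in the 11 Sp1 lists.

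HNRNPA2B1, whose protein is among the most abundant of its class, was occupied in 9 of the 11 lists, without the Sp1 DBD and the Sp1 WT line with rabbit anti-V5. With Sp1 WT the values were 53.4 and 102 (percentile 94.1), with the EWS chimera 16 and 17.4 (49), and in the 7 anti-V5 lists between 22.4 and 78.4. The Sp1 WT peak, at chr7:26200695-26201979, is shared with CBX3, which encodes heterochromatin protein HP1γ. The CBX3 start is 49 bases from the summit and that of HNRNPA2B1 66 bases. In the other lists that held the peak, the start nearest to the summit was that of HNRNPA2B1. HNRNPA1 shared its peak with CBX5, the HP1α gene, but only at percentiles from 8.55 to 17.3 in the anti-V5 lists against 78.6 in Sp1 WT (32.6 and 30.6).

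HNRNPC, which binds uridine tracts, was in all 8 anti-V5 lists, at percentiles up to 67.2, and with Sp1 WT at percentile 27.5 (13.5 and 28.1). HNRNPF (9 lists), HNRNPD (7) and HNRNPR (7) were likewise occupied in most anti-V5 lists, 5 to 7 of the 8, and HNRNPF reached percentile 90.5 with Sp1 WT (44.8 and 65.8). HNRNPK, a C-rich RNA binder, was the 1 gene of the 50 with peaks for the Sp1 DBD (23.5 and 15.2, percentile 45.6) and the EWS chimera (17.8 and 13, percentile 28.7) but none for Sp1 WT. It was also in 3 anti-V5 lists, and RMI1 shares its peak. HNRNPA0, HNRNPA3 and HNRNPU were occupied with Sp1 WT and in 1 or 2 anti-V5 lists, HNRNPM in the CTRL mouse anti-V5 list alone (9.44 and 30.4, percentile 1.69), and HNRNPH1 and HNRNPH3 in none. The 10 hnRNP genes occupied with Sp1 WT had a median percentile of 66.8 and ranged from 10.2 (HNRNPU) to 97.2 (HNRNPL), so that occupied genes of the class had weak as well as strong peaks.

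SR genes had few peaks outside the Sp1 WT list. SRSF2, which encodes the splicing enhancer-binding protein SC35, had an Sp1 WT peak at chr17:76736529-76738130 of 28.7 and 49.4 (percentile 75.7). Its anti-V5 peaks were 16 and 34.9 in the Sp1 IDR-LacI line with the rabbit antibody and 11.1 and 57.4 in CTRL with the mouse antibody. In the latter the second −log10 p was 5.17 times the first, where the median of this ratio over the occupied splicing factor genes of that list was 2.34. MFSD11, a neighbour whose start is 50 bases from the Sp1 WT summit, and the microRNA gene MIR636 share the peak. SRSF4 had a peak with Sp1 WT alone, of 32.6 and 32.9 (percentile 81), and not one of the anti-V5 lists held it. SRSF9 was called at percentile 8.31 only through an annotated start 233 bases from the summit that lies beside DYNLL1, while its canonical start is 26431 bases away. The 8 others (SRSF1, SRSF3, SRSF5, SRSF6, SRSF7, SRSF8, SRSF10 and SRSF11) had no peak in any of the 19 lists.

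In the last class PRPF8, the large scaffold protein of the U5 snRNP, was listed in CTRL with mouse anti-V5 alone (14.6 and 39.1, percentile 23.6). PRPF19, U2AF2 and U2AF1 had no peak in any list. For U2AF1 this is uncertain, because hg38 holds a copy on the same chromosome: 837 of the 971 words of 31 bases within 500 bp of its start occur again at chr21:6498748-6499748, so that reads could be placed at either.

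**Figure D4:**
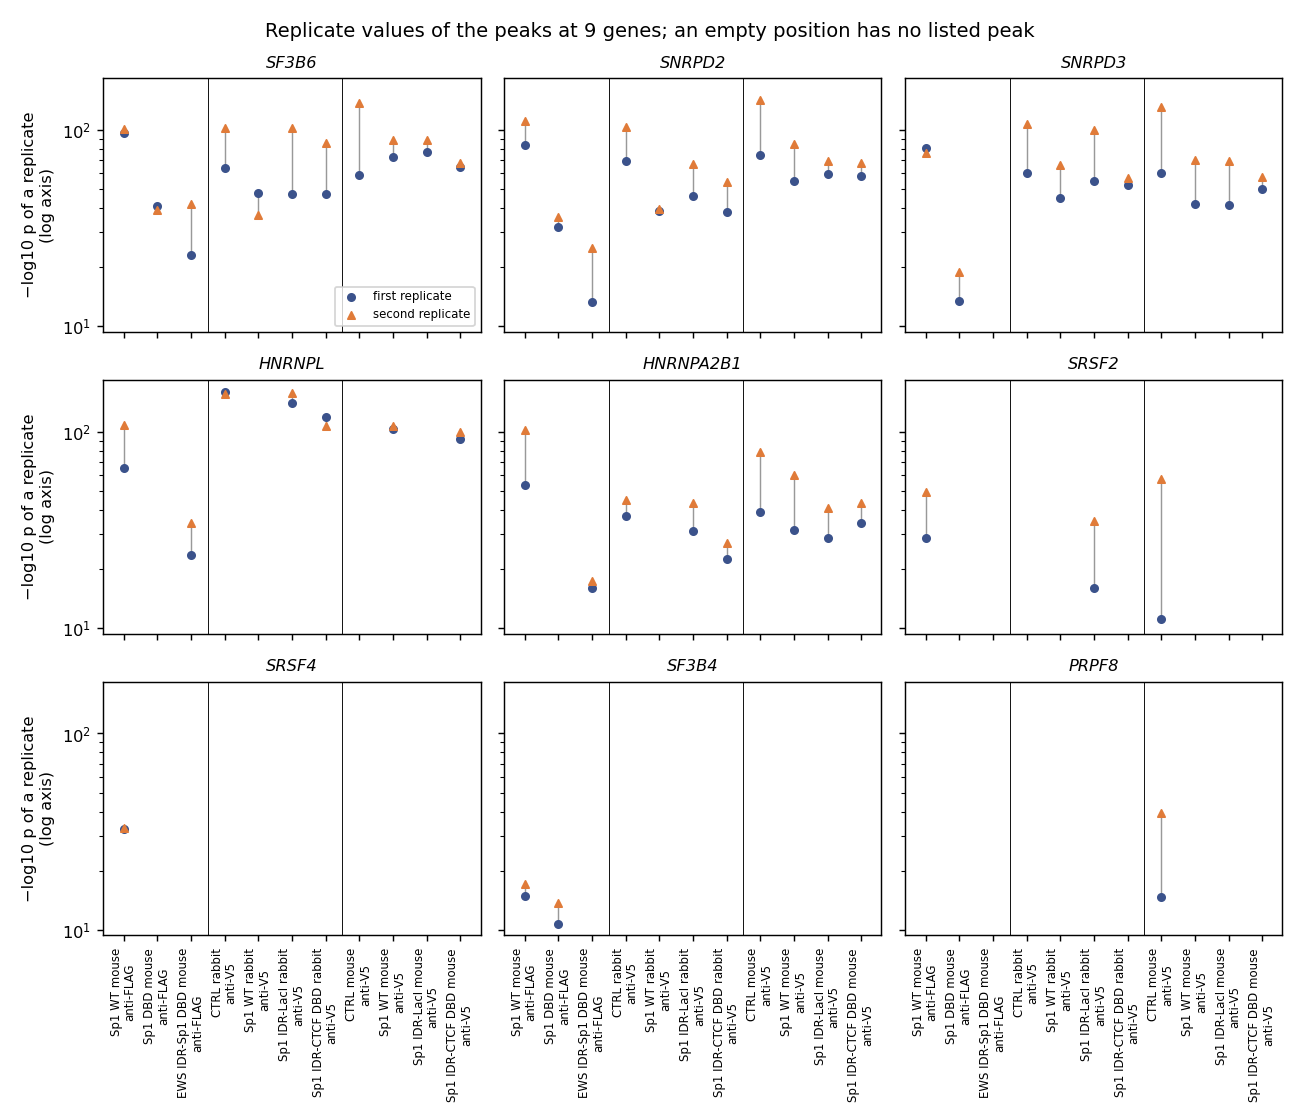
The −log10 p of the first (circle) and second (triangle) replicate, on a log axis, for the peaks of 9 genes in the 11 Sp1 lists; vertical lines separate the anti-FLAG, rabbit anti-V5 and mouse anti-V5 lists, and an empty position has no listed peak. SF3B6 and SNRPD2 have values in all 11 lists, with the lowest first-replicate value for the EWS chimera, and SRSF4, SF3B4 and PRPF8 in 1 or 2.

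Between Sp1 WT and the Sp1 DBD, 15 of the 50 genes were called with Sp1 WT alone, against 10.8% of protein-coding genes, and HNRNPK with the Sp1 DBD alone, against 3.15%. The 15 genes were SRSF2, SRSF4, SRSF9, HNRNPA0, HNRNPA1, HNRNPA2B1, HNRNPA3, HNRNPC, HNRNPL, HNRNPR, HNRNPU, SF3B2, SNRPA, SNRPB and SNRNP70, and the highest ranked of them in Sp1 WT were HNRNPL, HNRNPA2B1 and SNRPA. The 6 genes in both lists were SF3B6, SNRPD2, SNRPD3, SF3B4, HNRNPF and HNRNPD. Only SF3B6 and SNRPD2 were in all 3 lists of proteins with the Sp1 DBD, against 7.66% of protein-coding genes, and the same 2 genes were in all 11 lists, against 2.07%. These are calls, not measured differences in binding: a peak that misses the reproducibility threshold in 1 list may still carry signal. HNRNPL, which leads the 15, also lacked a call in some of the anti-V5 lists.

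The strength of the Sp1 WT peaks depended on the replicate that ranked them. By the smaller of the replicate values, the median percentile of the 21 occupied genes was 73.2, against 54.9 for all 4744 occupied protein-coding genes. It was 72.7 against 54.8 by the first replicate, but 55 against 56.5 by the second, so that the higher median was not present in the second replicate. The second replicate was the stronger in 19 of the 21 peaks, as in 96.9% of all Sp1 WT peaks. HNRNPA1 (80.5 by the first and 47.8 by the second) and SRSF4 (80.8 and 52.6) moved down, whereas SNRNP70 (18.6 and 53.7) and HNRNPU (10.2 and 52.8) moved up. By the smaller value 6 of the 21 were above percentile 90 (SF3B6, SNRPD2, SNRPD3, HNRNPL, HNRNPA2B1 and HNRNPF), against 12% of occupied protein-coding genes. By the second replicate 7 of the 21 were, against 11.9%: HNRNPF fell to percentile 88.4, the other 5 stayed above 90, and HNRNPR (90.7) and SNRPA (91.1) were added. By class, the median in the Sp1 WT list was 85.1 for 5 snRNP, 75.7 for 3 SR, 66.8 for 10 hnRNP and 34.7 for 3 SF3 genes. In the anti-V5 lists the median percentile of occupied splicing factor genes ran from 39.3 to 79.3, against 50.9 to 53.4 for protein-coding genes, and was the lower of the pair in both the CTRL and the Sp1 IDR-LacI lists of the mouse antibody (46.4 and 39.3). It was also the lower for the Sp1 DBD (43.2 against 52.8, 7 genes) and the EWS chimera (49 against 53.1, 5 genes).

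**Figure D5:**
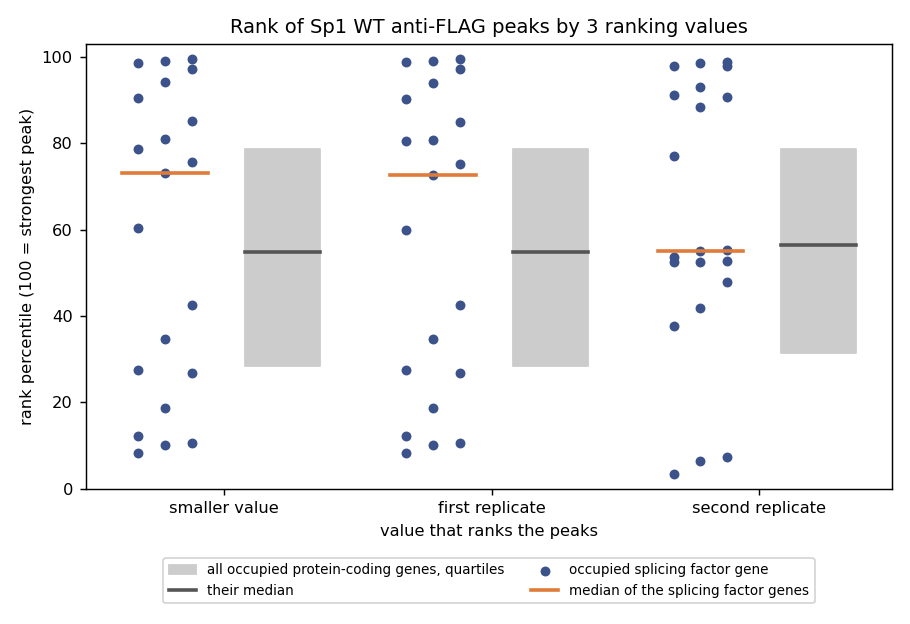
Rank percentile in the Sp1 WT list (100 is the strongest peak) of the 21 occupied splicing factor genes (points, with their median as an orange line) and of all 4744 occupied protein-coding genes (grey box from the lower to the upper quartile, with the median), with peaks ranked by the smaller replicate value, the first or the second. The median of the splicing factor genes is 73.2, 72.7 and 55.

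The peaks lay close to the starts. In the Sp1 WT list the summit was within 300 bases of the nearest start in 19 of 21 genes and upstream of it in 17, with a median distance of 164 bases against 130 for all occupied protein-coding genes. The peaks had a median length of 1260 bases, against 985 for peaks at protein-coding starts, and ranged from 361 (SNRPB) to 3250 bases (HNRNPL). For the genes that Sp1 WT shared with an anti-V5 list, the summits of both differed by a median of 12 to 46 bases, and by more than 200 bases only at HNRNPA1 (604 and 593 bases in the CTRL and Sp1 IDR-LacI lists of the rabbit antibody) and HNRNPF (1128 bases in the Sp1 IDR-CTCF DBD list of the rabbit antibody). With the Sp1 DBD the 6 shared genes differed by a median of 38.5 bases. Promoters shared with another protein-coding gene made up 8 of the 21, or 38.1%, against 33.2% of all occupied protein-coding genes. At all of these 8 but SNRPA, the other gene had the start nearer to the Sp1 WT summit. A call there does not assign the peak to the splicing factor gene.

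GC boxes were about as common at these peaks as at others or less so. A GGGCGG lay within 100 bp of the summit in 13 of the 21 Sp1 WT peaks (61.9%, 95% Wilson interval 40.9 to 79.2%), against 75.1% of all Sp1 WT peaks at protein-coding starts. For the Sp1 DBD it was 4 of 7 (57.1%) against 77.9%, and for the EWS chimera 3 of 5 (60%) against 78.7%. In CTRL it was 10 of 12 (83.3%) against 84.8% with the rabbit antibody and 11 of 13 (84.6%) against 86.6% with the mouse antibody. The intervals, which describe and do not test, held the share of all peaks in each of these 5 lists. In the other 6 anti-V5 lists the shares ran from 66.7 to 88.9%, against 84.3 to 88.2%. Over the whole peak rather than the window, 95.2% of the Sp1 WT peaks held a box, against 97.4%. SF3B6 had 5 boxes within 100 bp of its Sp1 WT summit and SNRPD2 had 1, outside the bases printed above, as were the 2 of SRSF2.

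RefSeq promoter sequences (GRCh38.p14, 250 bases before to 50 after the start) were matched for 46 of the 50 genes, without SRSF2, HNRNPA1, SF3B3 and SNRPD1. GGGCGG was present in 27 of them (58.7%), against 59.2% of 15324 protein-coding promoters, and GGGGCGGGG in 21.7% against 22.8%. The largest difference was in CCGGAAG, found in 18 (39.1%) against 14.4%, of which SF3 genes had 6 of 8 and snRNP genes 7 of 11 while hnRNP genes had 2 of 13. CCAAT was found in 39.1% against 36.6%, and in 9 of 13 hnRNP genes. TATAAA (10.9% against 9.63%) and AAGATGGC (3 genes, all of them SF3, 6.52% against 3.97%) were rare, and GGGCGG overlaps GGGGCGGGG, so that these counts are not independent. A match describes these letters in this window and not a bound site. The 46 promoters also held more CG dinucleotides, with a median of 28.5 against 22 for the protein-coding promoters.

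Among promoters with no GGGCGG, Sp1 WT occupied 11.9% of all protein-coding genes and 5 of the 19 splicing factor genes. With 1 box it occupied 25.9% and 8 of 15, and with 2 or more 38.5% and 6 of 12. In the Sp1 WT list the share of splicing factor genes was thus the higher at each number of boxes, though on few genes. With the Sp1 DBD the counts were 0 of 19, 4 of 15 and 3 of 12, against 6.96, 14.6 and 29% of protein-coding genes. In CTRL they were 2 of 19, 7 of 15 and 2 of 12 with the rabbit antibody, against 4.67, 11.8 and 17.9%, and 4 of 19, 7 of 15 and 1 of 12 with the mouse antibody, against 4.03, 10.3 and 17.3%. With 2 or more boxes the splicing factor genes were therefore not above the background in CTRL. Promoters with CCGGAAG were occupied by Sp1 WT in 30% of all cases, and those without it in 24.1%. In none of these comparisons was the background matched for CG dinucleotides or for expression, which the lists do not show.

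A wider list of 91 other splicing genes, from the LSM proteins to spliceosomal helicases and regulators, were occupied at similar shares in most lists. Sp1 WT occupied 40 of them (44%, against 23.7% of protein-coding genes) and the EWS chimera 11 (12.1%, against 11.1%). The anti-V5 lists held 10 to 25 (11 to 27.5%, against 6.8 to 11.1%). In at least 1 of the 11 lists were 44 (48.4%), as were 24 of the 50 (48%), against 28.9% of protein-coding genes. The Sp1 DBD alone occupied 25 (27.5%), a higher share than the 14% of the 50 genes and than the 16.1% of protein-coding genes. By class, calls over the 11 lists were most frequent for other hnRNP and regulator proteins (72 of 187, 38.5%), followed by LSM proteins (26%), helicases (25.6%), exon junction and SR-related proteins (24.7%) and U1 and U2 associated proteins (18.2%). The tri-snRNP (10.4%) and Prp19 complex (8.44%) were lowest, near the 11.3% of all protein-coding genes. The 5 genes with the highest mean percentile were RALY, TXNL4A, DDX5, KHSRP and SYNCRIP. RALY, an hnRNP-related gene with Sp1 WT values of 74.8 and 104, reached percentiles of 90.8 to 99.3 in 10 lists and had no call in 1 anti-V5 list, that of the Sp1 IDR-LacI line with the rabbit antibody. TXNL4A, a small U5 snRNP protein, and DDX5, a helicase, were in all 11 lists, and KHSRP and SYNCRIP, both RNA-binding regulators, in 10 each. The Sp1 WT summit at TXNL4A lay 197 bases before an annotated start but 45583 bases from its canonical start. RBFA and a protein-coding model without a gene name share that peak.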

How the data were processed

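Each of 38 CUT&RUN samples was mapped to 1 of 19 groups by its labels. Per the methods and the submitters' processing notes, cutadapt 2.6 served for trimming, Bowtie2 2.3.5.1 for alignment (hg38) and SAMtools 1.9 for the removal of duplicates. MACS3 (version noted as 2.2.7.1) called peaks in every replicate with a p threshold of 0.001 and the control replicates merged, and peaks were retained up to an IDR, the irreproducible discovery rate, of 0.1. The authors deposited −log10 p-values for the merged peak and both replicates, and a score, the −log10 of the global IDR. The merged value equals the smaller replicate value, and which labelled replicate came first is unknown. The 6 tables of differential regions hold log10 likelihood ratios of the authors' own comparisons and were not used.

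Peaks were ranked by merged −log10 p within each list and matched to transcript starts of GENCODE 44. Starts within 1000 bp were found in a script, checked against bedtools 2.31.1 in 19 lists and tested on simulated data. Shares have 95% Wilson intervals (SciPy 1.17.1), and no test was run. The members and lists were chosen with earlier results of these data known. Named genes are, per class, the 2 with the highest mean percentile over the 11 Sp1 lists, those in none of them, those whose Sp1 WT and Sp1 DBD calls differ, those in any of the other 8 lists, and the 5 highest other splicing genes. Others are named to account for every member. Alternatives were distances of 500 and 5000 bp, IDR of 0.05 and 0.01, summits, canonical starts, equal list length, lists without control peaks, other ranking values, other motif forms, and a background of chromosomes 1 to 22 and X. Python 3.11.15, pysam 0.24.0 and matplotlib 3.10.9 were used.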

Additional observations from a re-analysis of the deposited data

How the results depend on the processing

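Counts of occupied genes that were recomputed stayed within 1.5 times the reported ones at 500 and 5000 bp, at an IDR of 0.05, for summits, for canonical starts and without control peaks. At an IDR of 0.01, where fewer peaks remain, the counts were 12 for Sp1 WT (13.3% of protein-coding genes), 2 for the Sp1 DBD (7.14%), 2 for the EWS chimera (3.87%), 8 for CTRL mouse anti-V5 (6.73%), 1 in all 3 lists of Sp1 DBD proteins (2.59%), 14 in at least 1 of the 11 lists (16.8%) and 24 other splicing genes with Sp1 WT (26.4% of them). With lists of equal length they were 10 (7.1%), 2 (6.93%), 3 (6.15%), 7 (7.27%), 1 (2.86%) and 14 (14.8%) in the same order, and 13 other splicing genes (14.3%). A further count took all lists but those of Sp1 DBD proteins and of CTRL anti-V5, 14 in number. There the calls at the 50 genes were 70 (10% of possible calls, against 4.02% for protein-coding genes). At an IDR of 0.01 they were 45 (6.43%, against 2.56%). With a box searched in the whole peak the shares were 95.2% for Sp1 WT (97.4% of all peaks) and 100% for the Sp1 DBD (98.7%), the EWS chimera (98.1%) and CTRL rabbit anti-V5 (96.6%). With GGGGCGGGG they were 28.6% both for Sp1 WT (30.1%) and for the Sp1 DBD (32.1%), 20% in the EWS chimera list (33.9%), 25% for CTRL rabbit anti-V5 (41.6%) and 46.2% for CTRL mouse anti-V5 (45%). With chromosomes 1 to 22 and X alone, the background share for Sp1 WT was 23.8%. The median percentile of the 21 genes with Sp1 WT was 72.7 by the first replicate (54.8 for protein-coding genes) and 55 by the second (56.5), so that its excess was lost by the second. Among alternatives chosen after seeing the data, the mean percentile of SF3B6 was 88.1 by the first and 89.3 by the second replicate, and that of SRSF2 11.4 and 16.3.

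Ranking by the signal value was not run, because that column is −1 throughout. No paired analysis was possible because a list combines both replicates and no test was run. Leaving out a replicate was likewise not run, since the lists hold only peaks found in both. The depth is unknown, and an absent peak sets no limit on binding.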
